A study of Mus musculus with 8 samples.

Results

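The ETS factors are DNA-binding proteins that recognise a short core word, GGAA, through a shared winged helix-turn-helix domain. In blood vessels several of them act at the enhancers and promoters of endothelial genes: ERG and FLI1 are close relatives that maintain endothelial identity, ETS1 and ETS2 answer to growth factor signalling, and ELK3 and ETV6 are known mainly as repressors. FLI1 is also a factor of megakaryocytes and other blood cells. The measurements below follow 10 family members of endothelium in the mouse, Fli1, Erg, Ets1, Ets2, Elk3, Etv6, Elf1, Elf2, Elf4 and Gabpa, which were selected by gene symbol. All 10 were found among the 31610 genes of the count table. The set was assembled around Fli1 because its transcript was lower after nANGPTL4 delivery, so the values of Fli1 in that comparison are a description and not a test, and all 10 were chosen with results of that comparison known.

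RNA was sequenced from lung endothelial cells of C57BL/6J mice, sorted by FACS. Of the mice, 4 had received a Control AAV and 4 an nANGPTL4 AAV, where AAV is an adeno-associated virus used to carry a gene into tissue and nANGPTL4 commonly denotes the N-terminal fragment of the lipoprotein lipase inhibitor ANGPTL4. The libraries of the second group are titled NT Treated, so their identity rests on the treatment field. The age and sex of the mice, the dose, the promoter of the vector and the time after injection are not given in the sources used here.

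Total counts were 83183122 to 114337333 per library. Endothelial markers were abundant, with Pecam1 at 2539 to 2835 CPM (counts scaled to library size) and Cdh5 at 1113 to 1244 CPM over the 8 libraries. Markers of other cells were lower than these, and most leaned towards higher values in nANGPTL4 AAV, with 0 called in edgeR. The summed level of 10 lymphocyte markers was 1.96 to 2.46 CPM in control AAV and 2.53 to 6.09 CPM in nANGPTL4 AAV, with all 4 tested markers on the positive side. The 10 myeloid markers summed to 16.1 to 37.7 and 29.0 to 49.0 CPM, with 5 of 5 tested positive. The 11 erythroid and platelet markers summed to 50.2 to 96.8 and 82.5 to 95.1 CPM, with 10 of 10 tested positive. The 11 epithelial markers summed to 89.0 to 238 and 193 to 318 CPM, with 9 of 11 positive, and the 10 fibroblast and mural markers to 47.5 to 113.9 and 60.3 to 145 CPM, with 5 of 10 positive. Control AAV library 1 was the lowest of its group in 4 of these 5 sums, all but the lymphocyte one. Without it the epithelial sum of the controls was 224 to 238, the myeloid sum 32.0 to 37.7 and the erythroid and platelet sum 78.1 to 96.8 CPM, and these ranges overlapped those of nANGPTL4 AAV. Of all tested genes with a mean log2 CPM up to 3, 66.4% had positive values. No marker in these lists was at 0 in all libraries. Cd3e lay at 0.00911 to 0.119 CPM and Ptprc at 0.265 to 1.17 CPM over the 8 libraries. Sftpc, at 25.0 to 163 CPM, Lyz2, at 8.69 to 39.2 CPM, and Col1a1, at 4.93 to 25.0 CPM, were more abundant. Fewer cells of a type and less RNA per cell cannot be told apart in such bulk samples.

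Among the members, 4 lie in 2 pairs of neighbours. On mm10, Fli1 occupies chromosome 9 from 32422204 to 32542861 on the minus strand, and Ets1 lies beside it from 32636221 to 32757820 on the plus strand, 93.4 kb away with no protein-coding gene between them. Erg occupies chromosome 16 from 95359169 to 95586593 on the minus strand, and Ets2 lies from 95702075 to 95721051 on the plus strand, 115 kb away, again with no protein-coding gene between. In both pairs the 5′ ends face each other and the genes are read outwards. Gabpa, which encodes the DNA-binding subunit of the GA-binding protein, is on chromosome 16 as well, from 84834925 to 84863779 on the plus strand. The other members are on chromosomes 10 (Elk3), 6 (Etv6), 14 (Elf1), 3 (Elf2) and X (Elf4). Counts were made over whole genes, so no isoform or exon can be singled out. Of the merged exons of Elk3, 6.95% overlap Cdk17 on the other strand, as do 4.85% of those of Elf1 with Wbp4, 6.98% of those of Gabpa with Atp5j, 2.26% of those of Etv6 with Gm17089 and 3.88% of those of Elf2 with 4930577N17Rik. The strand setting of the counting was not given in the sources used here, so these 5 counts are less certain. No annotated gene shared an exonic base with Fli1, Erg, Ets1, Ets2 or Elf4.

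The windows from 250 bases before to 50 bases after a gene start, from the RefSeq table on GRCm38.p6, were available for 8 members with 13 starts, all but Fli1 and Ets1. The 3 printed here, of the 4 with at least 5 GGAA words on both strands, show the core word of the family at the starts of its own genes, and the capitals mark each GGAA or its complement TTCC.
Elf4, chrX:48463083-48463382, minus strand, 8 words: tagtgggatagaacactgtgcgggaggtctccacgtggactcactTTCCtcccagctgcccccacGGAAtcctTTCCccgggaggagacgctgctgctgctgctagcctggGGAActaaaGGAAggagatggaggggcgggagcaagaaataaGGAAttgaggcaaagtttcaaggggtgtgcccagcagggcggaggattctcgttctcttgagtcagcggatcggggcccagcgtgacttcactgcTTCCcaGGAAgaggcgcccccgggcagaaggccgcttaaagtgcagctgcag
Etv6, chr6:134035450-134035749, plus strand, 6 words: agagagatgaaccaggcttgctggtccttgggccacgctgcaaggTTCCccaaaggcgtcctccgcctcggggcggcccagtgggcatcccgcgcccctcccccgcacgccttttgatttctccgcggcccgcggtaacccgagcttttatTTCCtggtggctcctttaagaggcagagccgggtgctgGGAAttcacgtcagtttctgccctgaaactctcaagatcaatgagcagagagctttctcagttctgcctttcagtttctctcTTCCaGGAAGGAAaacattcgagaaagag
Gabpa, chr16:84834874-84835173, plus strand, 5 words: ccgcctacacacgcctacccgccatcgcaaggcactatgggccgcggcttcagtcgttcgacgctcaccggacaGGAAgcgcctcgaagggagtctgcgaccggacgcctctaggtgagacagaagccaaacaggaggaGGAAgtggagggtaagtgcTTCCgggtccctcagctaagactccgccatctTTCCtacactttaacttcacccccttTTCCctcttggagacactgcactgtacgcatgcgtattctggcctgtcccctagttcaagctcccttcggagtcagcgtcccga
The other, a start of Elf2, had 6 words. GGAA was found in all 13 windows, as in 96.0% of the 32851 windows of the same length in the table. The median count was 2 in the member windows and 3 in all windows, and a count of at least 5 was found in 28.6% of all windows. A count of at least 8, as in Elf4, was found in 3.72% of all windows. The longer word CCGGAAGT, which contains GGAA, was in 0 of the 13 windows and in 3.89% of all windows. The word GGAAGGAA, made of adjacent cores, was in the Etv6 window only among the members and in 3.79% of all windows. The Gabpa window shares 247 bases with that of Atp5j, which runs the other way, the Etv6 window 113 bases with that of Gm46977, and the first Elf1 window shares 25 bases with that of Wbp4. Such matches are letters in a window and no measure of binding.

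Levels were compared between genes as CPM per kilobase of merged exons. Ets2 and Ets1 were the most abundant members. Ets2 stood at 122 ± 10.5 in control AAV and 111 ± 3.42 in nANGPTL4 AAV (SD, n = 4 each), and Ets1 at 107 ± 11.6 and 109 ± 5.63. Their ranges overlapped, with Ets2 higher in 7 of 8 libraries. Elk3, the ternary complex factor that works with SRF, followed at 79.2 ± 4.40 and 74.1 ± 3.64 and Fli1 at 49.3 ± 4.28 and 34.1 ± 2.38. The ranges over 8 libraries did not overlap from Ets1 to Elk3, from Elk3 to Fli1, from Fli1 to Elf1 or from Elf1 to Elf2. Elf1, a factor also active in blood cells, was at 18.9 to 23.2 over the 8 libraries. Elf2 at 15.8 to 17.7 and Erg at 14.7 to 18.4 could not be ordered, with Elf2 higher in 4 of 8 libraries. Etv6 at 11.4 to 17.4 was below Erg in 8 of 8 libraries although the ranges overlapped. Gabpa at 8.92 to 10.9 and Elf4 at 4.44 to 6.00 closed the order, each separate from the member before it. Fli1 made up 10.4 ± 1.36% of the summed level of the family in control AAV and 7.68 ± 0.491% in nANGPTL4 AAV.

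**Figure D1:**
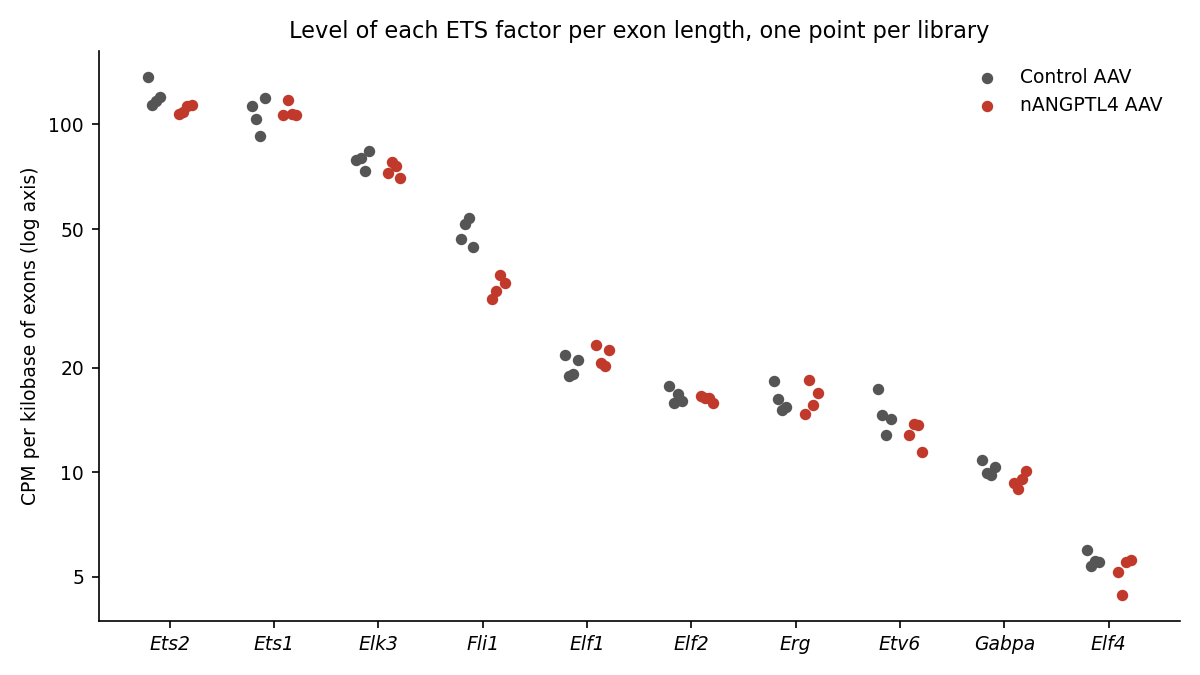
Level of each ETS factor in CPM per kilobase of merged exons (log axis), with 1 point per library, control AAV in grey and nANGPTL4 AAV in red. Ets2 and Ets1 lie highest and Elf4 lowest, and Fli1 is the only member whose groups are separate.

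With the length of the longest transcript in place of merged exons, Ets1 was at 181 and Ets2 at 173, so the first place in the order rests on the length used. The other members kept the order of their means, at 82.8 for Elk3, 43.8 for Fli1, 33.3 for Elf1 and 26.5 for Elf2. Erg followed at 17.4, Etv6 at 14.5, Gabpa at 11.2 and Elf4 at 5.46. The separation of some neighbours changed with the length. Over the 8 libraries Fli1 (from 33.0) and Elf1 (up to 37.0) then overlapped, as did Etv6 (from 12.0) and Gabpa (up to 12.4). Elf2 (25.5 to 28.6) was then separate from Erg (15.7 to 19.6). Of the summed level of the 26 ETS family genes in the table, the 10 members made up 92.6 ± 0.412% in control AAV and 92.4 ± 0.486% in nANGPTL4 AAV (SD, n = 4 each).

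Fli1 was the member that differed most between the groups. It stood at 164, 180, 188 and 155 CPM in control AAV libraries 1 to 4 and at 110, 115, 129 and 122 CPM in nANGPTL4 AAV libraries 1 to 4. The highest nANGPTL4 AAV library was thus below the lowest control AAV library. The counts behind these values were 14902 to 20336 and 10128 to 14128 per library. The group means were 172 ± 14.9 and 119 ± 8.28 CPM (SD over 4 libraries), which gave a log2 fold change, nANGPTL4 AAV minus control AAV, (the log2 difference) of -0.53 (SE 0.07) with a 95% interval of -0.68 to -0.38, and the level fell by 30.8%. This is the value that led to the choice of the set, with an adjusted p of 0.0369 in edgeR's quasi-likelihood test over 18874 genes. With upper quartile scaling the adjusted p was 0.0572, with library size only it was 0.0562, and with any 1 of the 8 libraries left out it was at most 0.162 and above 0.05, while the log2 difference stayed between -0.58 and -0.47 in these fits. The value closest to the threshold was the fit without control AAV library 4, at 0.0500017.

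**Figure D2:**
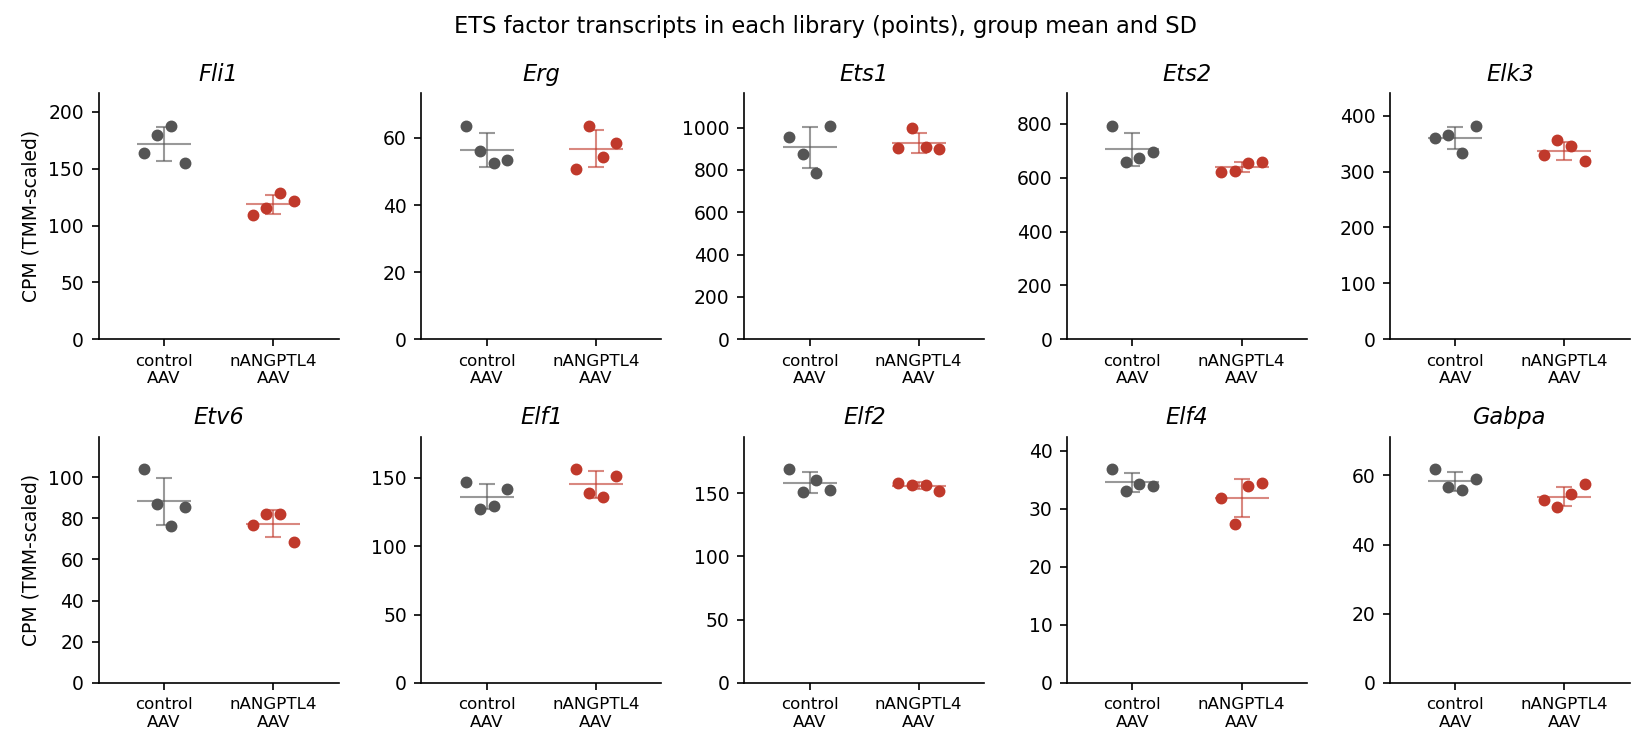
CPM of each ETS factor in each library (points) with the mean and SD of each group (bars, n = 4), on axes that start at 0. The 4 nANGPTL4 AAV libraries of Fli1 sit at 110 to 129 CPM, below the 4 control AAV libraries at 155 to 188 CPM, while the groups of the other 9 members overlap.

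The scaling of the libraries shifted all genes a little. The median log2 difference of the better expressed genes (mean log2 CPM over 3) lay at -0.03 under TMM and 0.01 with library size only. Fli1 lay 0.50 below that median under all 4 scalings tried.

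Erg, the closest relative of Fli1, stood at 63.5, 56.1, 52.4 and 53.5 CPM in control AAV libraries 1 to 4 and at 50.8, 63.7, 54.2 and 58.5 CPM in nANGPTL4 AAV libraries 1 to 4. The groups spanned nearly the same range. Its log2 difference was 0.01 (SE 0.08, 95% interval -0.16 to 0.18, edgeR adjusted p = 0.957). It had the opposite sign in 4 of the 8 fits with 1 library left out. The level of Fli1 relative to Erg, both per kilobase, was 2.56 to 3.57 in control AAV and 1.80 to 2.36 in nANGPTL4 AAV libraries, which did not overlap, as a description since Fli1 chose the set.

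Ets1, a factor of angiogenesis and of lymphocytes, stood at 956, 877, 785 and 1010 CPM in control AAV libraries 1 to 4 and at 902, 999, 910 and 900 CPM in nANGPTL4 AAV libraries 1 to 4. Here the control libraries spread more widely and enclosed all those of nANGPTL4 AAV. The log2 difference was 0.03 (SE 0.07, 95% interval -0.13 to 0.20, edgeR adjusted p = 0.857), and -0.02 without control AAV library 3. Among the control libraries, library 3 had the highest Fli1 and the lowest Ets1, and library 4 the lowest Fli1 and the highest Ets1. Library 3 was also the lowest for Erg, Elk3, Etv6 and Gabpa, and library 4 the highest for Elk3. In nANGPTL4 AAV, Fli1 was highest in library 3 and lowest in library 1, and Ets1 highest in library 2 and lowest in library 4. The ratio of Fli1 to Ets1 per kilobase was 0.374 to 0.583 in control AAV and 0.281 to 0.344 in nANGPTL4 AAV.

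Ets2, the partner of Erg on chromosome 16, stood at 793, 658, 673 and 695 CPM in control AAV libraries 1 to 4 and at 619, 626, 654 and 658 CPM in nANGPTL4 AAV libraries 1 to 4. The groups touched, nANGPTL4 AAV library 4 (658.4 CPM) lying just above control AAV library 2 (657.96 CPM). The log2 difference was -0.14 (SE 0.06, 95% interval -0.27 to -0.01, edgeR adjusted p = 0.265). Without control AAV library 1, the highest, it was -0.07.

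Of the members known as repressors, Etv6 stood at 104, 87.2, 76.3 and 85.3 CPM in control AAV libraries 1 to 4 and at 76.6, 82.1, 82.1 and 68.4 CPM in nANGPTL4 AAV libraries 1 to 4. The groups overlapped, with control AAV library 1 well above the other 7. The log2 difference of -0.19 (SE 0.09, 95% interval -0.39 to 0.01, edgeR adjusted p = 0.302) was -0.09 without that library. Elk3 lay at 334 to 382 CPM in control AAV and 318 to 356 CPM in nANGPTL4 AAV, with a log2 difference of -0.10 (SE 0.05, edgeR adjusted p = 0.382) that was -0.05 with library size only.

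The Elf factors, relatives of one another with a role in haematopoietic and endothelial genes, also overlapped between the groups. Elf1 lay at 127 to 147 CPM in control AAV and 136 to 157 CPM in nANGPTL4 AAV, a log2 difference of 0.09 (SE 0.06, 95% interval -0.04 to 0.23, edgeR adjusted p = 0.473). Elf2 was the member with the least spread within groups, at 151 to 169 and 152 to 158 CPM, and its log2 difference of -0.02 (SE 0.05, edgeR adjusted p = 0.824) was 0.02 with library size only, with upper quartile scaling and without control AAV library 1. Elf4 lay at 33.1 to 36.9 and 27.3 to 34.4 CPM, a log2 difference of -0.12 (SE 0.07, edgeR adjusted p = 0.445). That of Elf4 was -0.03 without nANGPTL4 AAV library 2 and -0.07 without control AAV library 1.

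Gabpa, which pairs with a beta subunit to activate housekeeping and mitochondrial genes, lay at 55.7 to 61.8 CPM in control AAV and 50.8 to 57.4 CPM in nANGPTL4 AAV. These overlapped at the edge, and the log2 difference was -0.11 (SE 0.05, 95% interval -0.23 to -0.0013, edgeR adjusted p = 0.280). It was -0.07 with library size only, with upper quartile scaling and without nANGPTL4 AAV library 2, and -0.08 without control AAV library 1. Atp5j, which shares its start region and some exonic bases, had a log2 difference of 0.04 (SE 0.04, edgeR adjusted p = 0.633). Wbp4, which overlaps Elf1, was at 0.15 (adjusted p = 0.169) and Cdk17, which overlaps Elk3, at -0.16 (adjusted p = 0.115).

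**Figure D3:**
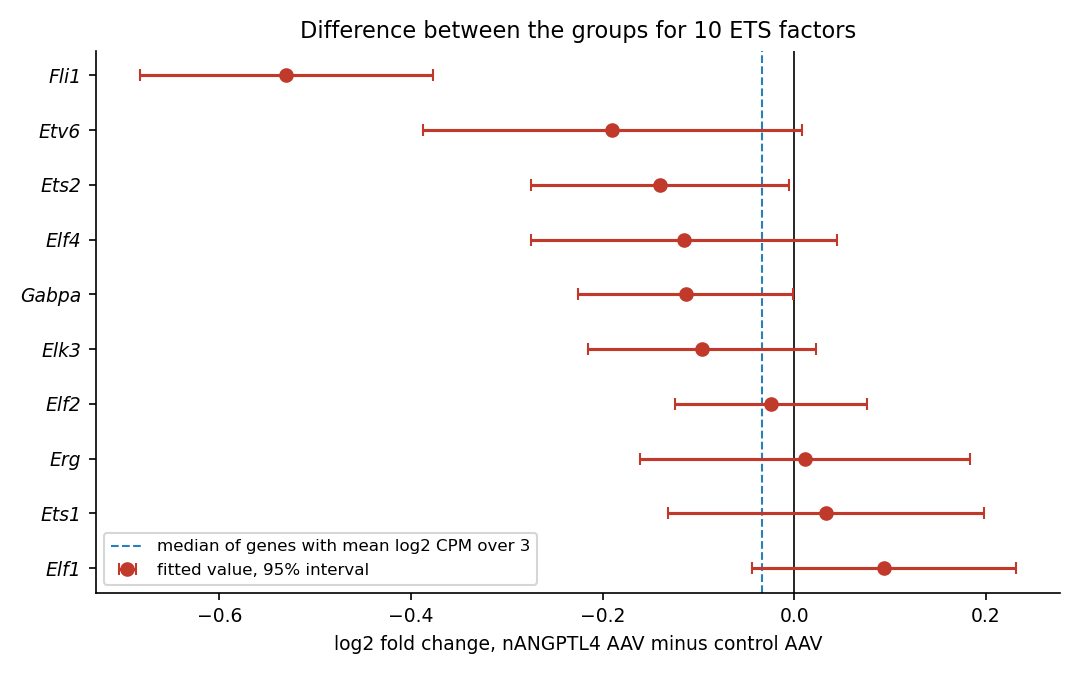
Fitted log2 fold change of each ETS factor, nANGPTL4 AAV minus control AAV, with its 95% interval (bars), the zero line and the median of genes with a mean log2 CPM over 3 (dashed, -0.03). Fli1 lies at -0.53, and the intervals of the other 9 members end above it, the lowest at -0.39 for Etv6.

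Counted over the set, 1 of 10 members, Fli1, was called at an adjusted p under 0.05 in edgeR, where 0.138% of all tested genes were called in either direction and 0.0901% as lower. Since the set was built around that gene, nothing is read from this count. At an unadjusted p under 0.05 there were 3 lower members, Fli1, Ets2 and Gabpa, and 0 higher, where 10.3% of all tested genes were lower by that rule and 7.35% higher. Of the 9241 better expressed genes, 18.2% were lower by it and 393 were higher. Fli1 was the 1 member whose groups did not overlap. In that direction the groups did not overlap in 6.99% of all tested genes and in 12.6% of the better expressed genes. Of the 10, 7 had negative values with a median of -0.10, beside 62.5% negative and a median of -0.03 among the better expressed genes. Under library size only, 6 were negative with a median of -0.06. Without control AAV library 1, which was the highest of its group for 7 of the 10 members, the median was -0.07 with 6 negative. Without nANGPTL4 AAV library 2 it was -0.05 with 8 negative. Without control AAV library 3, 9 were negative. DESeq2 and limma-voom each called Fli1 and no other member, beside 956 and 21 of all 18874 tested genes.

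Within 500 kb of Fli1, 15 other genes were tested and 0 were called in edgeR, beside 0.138% of all tested genes. In 1 of them, the antisense gene Gm27201, the groups were separate and nANGPTL4 AAV higher, as in 3.89% of all tested genes. Inside the span of Fli1, but sharing no exonic base with it, 6 noncoding loci were tested, and all 6 had positive values, with a median log2 difference of 0.37. The most abundant of these was Gm37474, a locus of the annotation class TEC on the same strand, centred 16.8 kb from the 5′ end of the gene. It stood at 5.50, 4.03, 5.68 and 4.82 CPM in control AAV libraries 1 to 4 and at 9.78, 6.90, 5.14 and 8.69 CPM in nANGPTL4 AAV libraries 1 to 4, a log2 difference of 0.61 (SE 0.18, edgeR adjusted p = 0.134). The groups overlapped through nANGPTL4 AAV library 3. Gm27201, on the other strand, lay at 0.416 to 0.702 CPM in control AAV and 0.784 to 1.40 CPM in nANGPTL4 AAV, a log2 difference of 0.75 (SE 0.23, edgeR adjusted p = 0.130). These loci were chosen after their values were seen. All 4 such loci inside Etv6 and Elf2 were positive as well.

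Positive values at such loci were common in these libraries. Of the 1404 noncoding loci that lay inside a tested protein-coding gene with no shared exonic base, 78.9% were positive, with a median of 0.26. Of the 541 loci of class TEC on the strand of their host, 82.99% were positive. The summed level of the latter was 453 to 600 CPM in control AAV and 490 to 723 CPM in nANGPTL4 AAV. The part of this shift in the values of Fli1 was not tested.

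**Figure D4:**
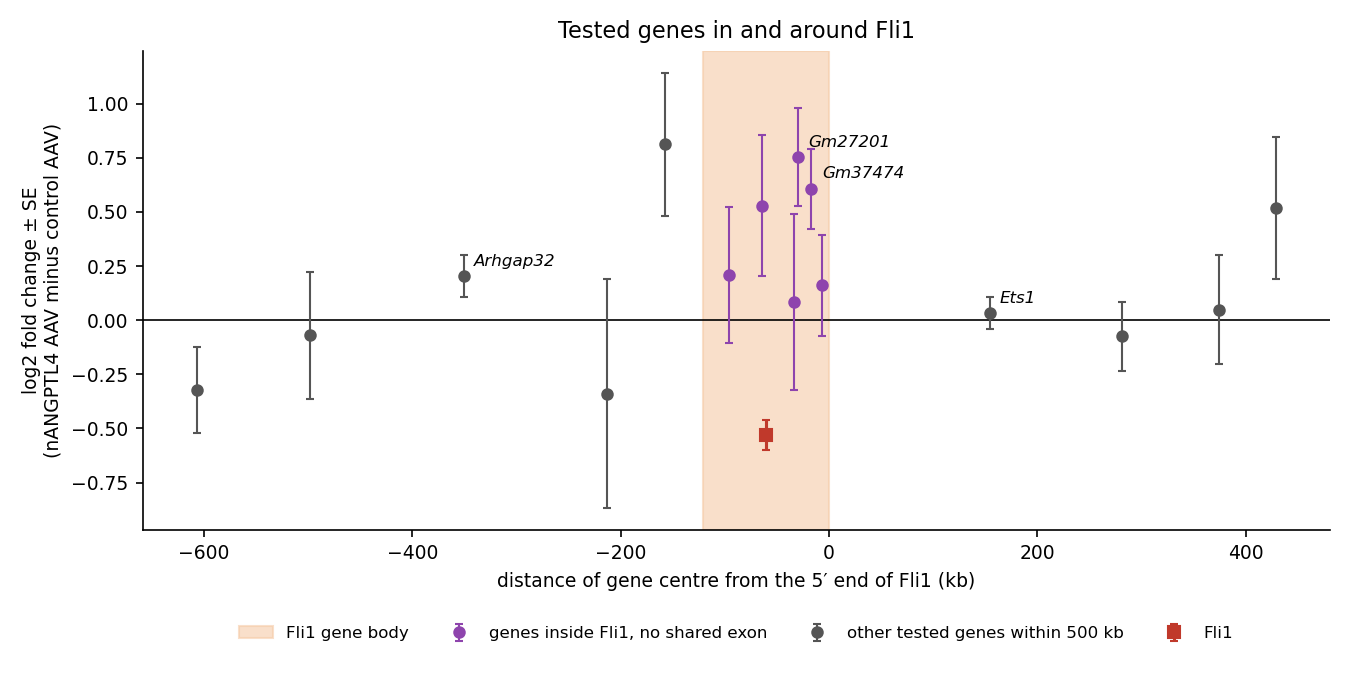
Log2 fold change with its SE (bars) of Fli1 and of the tested genes within 500 kb of it, plotted by the distance of the gene centre from the 5′ end of Fli1 in kb, with the gene body shaded. Fli1 lies at -0.53 while the 6 loci inside its body lie above 0 and Ets1, on the far side of the start, at 0.03.

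The genes whose profile was most like that of Fli1 were sought among 9223 genes outside the family with a mean log2 CPM of at least 3. Likeness was the root mean square difference between log2 CPM values centred on each gene's mean over the 8 libraries, and the median gene differed by 0.280. The closest were Mtmr4, a phosphoinositide phosphatase, at 0.0679, Kansl1l at 0.0876, Erlin1, an endoplasmic reticulum membrane protein, at 0.0894, Gpr182, a receptor of endothelium, at 0.0910, and Ttll4, a tubulin-modifying enzyme, at 0.0940. Their log2 differences were -0.52, -0.45, -0.39, -0.42 and -0.56, and the groups of each did not overlap. The same held in that direction for 6.99% of all tested genes and 12.6% of the better expressed genes. Of the other members, Ets2 at 0.240 and Elf4 at 0.241 were closest to Fli1 and Elf1 at 0.356 was farthest. Since the measure includes the difference between the groups, it describes that difference again together with the spread inside the groups.

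**Figure D5:**
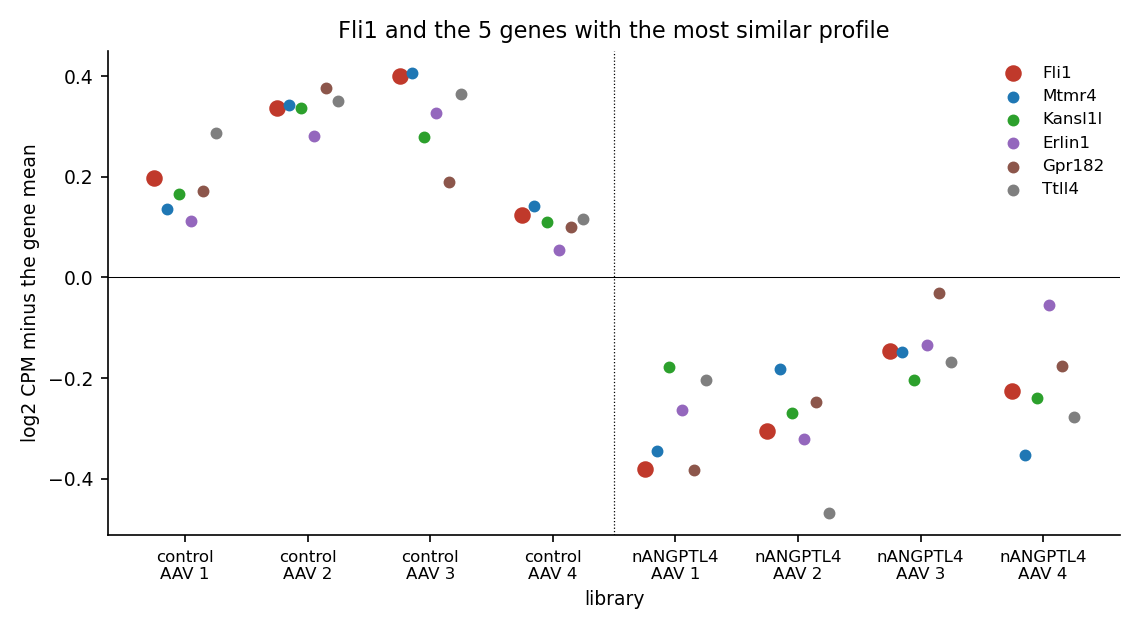
Log2 CPM minus the gene mean in each of the 8 libraries for Fli1 (large red points) and the 5 genes with the smallest root mean square difference from it. All 6 genes lie above their mean in every control AAV library and below it in every nANGPTL4 AAV library, and in Fli1 control AAV library 3 is highest and nANGPTL4 AAV library 1 lowest.

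The rest of the ETS family was expressed at lower levels. Among 16 other family genes present, 14 were tested, and 0 were called in edgeR and in limma-voom and 1, Etv1, in DESeq2. Etv1 was called as higher, as were 308 of all 18874 tested genes in DESeq2. At an unadjusted p under 0.05 in edgeR 5 were higher and 1 lower, beside 7.35% and 10.3% of all tested genes. Elk4, a partner of SRF, at 14.4 CPM per kilobase and Etv3, a repressor, at 8.40 were as abundant as the lower members, and their log2 differences were -0.12 and -0.04. The 4 with the smallest p were all scarce, in the range where 66.4% of all tested genes were positive. Spib, a factor of B cells and plasmacytoid dendritic cells, was at 0.101 and 0.336 CPM (log2 difference 1.78, SE 0.51, edgeR adjusted p = 0.120), Etv1 at 1.59 and 2.10 CPM (0.40), Spdef, a factor of secretory epithelium, at 0.187 and 0.364 CPM (0.97), and Fev at 0.448 and 0.681 CPM (0.61). Spi1, the myeloid factor PU.1, was at 0.119 to 0.556 CPM in nANGPTL4 AAV and 0.177 to 0.209 CPM in control AAV. The lymphocyte, myeloid and epithelial marker sums given above leaned in the same direction as Spib, Spi1 and Spdef. Spi1 is itself in the myeloid marker list, so its value and that sum share a transcript. The part of other cells in these values was not tested.

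Partners and cofactors of ETS factors were measured as a list of 33 genes, all tested, of which 20 had negative values, with a median of -0.07. None was called in edgeR or limma-voom, and 3 were called as lower in DESeq2, beside 648 of all 18874 tested genes. At an unadjusted p under 0.05 in edgeR 9 were lower and 1 higher, beside 18.2% lower and 62.5% negative among the better expressed genes and 10.3% lower and 7.35% higher over all tested genes. The smallest p were those of Sin3a, a corepressor scaffold, at 47.1 ± 1.87 and 39.1 ± 2.57 CPM (log2 difference -0.27, SE 0.05, edgeR adjusted p = 0.0674), Cbfb, the partner of RUNX factors, at -0.28 (adjusted p = 0.0794), and Gabpb1, the beta subunit that binds GABPA, at -0.14 (0.157). With library size only 18 of the 33 were negative with a median of -0.02. The other beta subunit, Gabpb2, had a value of -0.07.

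Genes known to be bound or activated by ETS factors in endothelium formed a list of 35, of which 34 were tested. None was called in edgeR or limma-voom and 4 were called as lower in DESeq2, beside 648 of all 18874 tested genes. At an unadjusted p under 0.05 in edgeR 11 of 34 were lower and 0 higher, beside 18.2% lower among the better expressed genes and 10.3% over all tested genes. Negative values were found in 30 of 34, with a median of -0.05 and a range of -0.27 to 0.13, beside 62.5% negative and a median of -0.03 among the better expressed genes, and with library size only in 22 of 34, with a median of -0.01. The smallest p were those of Vwf, the coagulation protein, at 1921 ± 67.0 and 1589 ± 129 CPM (log2 difference -0.27, SE 0.06, edgeR adjusted p = 0.0783), and of the vascular growth factor receptor Flt1 at -0.15 (0.114), the Wnt receptor Fzd4 at -0.25 (0.134) and the lymphatic growth factor receptor Flt4 at -0.14 (0.136). Without control AAV library 1, Fzd4 was at -0.16. Others known as ERG or FLI1 genes had values near 0, such as Cdh5 at -0.05, Cldn5 at -0.02 and Icam2 at -0.01. All 8 general endothelial markers, of which 7 are in this list, were on the negative side with a median of -0.05, and 6 of 8 with library size only.

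Genes that ERG or FLI1 are known to hold down were 9, with 8 tested. None was called in edgeR or limma-voom, and 1 was called as higher in DESeq2 and in a robust edgeR fit. Of all 18874 tested genes, DESeq2 called 308 as higher and the robust fit 16. At an unadjusted p under 0.05 in edgeR 1 was higher and 0 lower, beside 7.35% and 10.3% of all tested genes. Values were positive in 4 of the 8 and negative in 4, with a median of 0.003. Col1a1 and Col1a2, on the positive side, are also in the fibroblast and mural marker list, so their values describe the same transcripts. Those below 0 included Snai2 at -0.17, the adhesion molecule Vcam1 at -0.18 and Tgfb2 at -0.14, with edgeR adjusted p-values of 0.425 to 0.692. These 3 values shifted when single libraries were left out. Snai2 was at -0.09 without nANGPTL4 AAV library 3 and -0.10 without nANGPTL4 AAV library 2. Vcam1 was at -0.09 without control AAV library 2, -0.12 without nANGPTL4 AAV library 2 and -0.31 without nANGPTL4 AAV library 1. Tgfb2 was at -0.05 without control AAV library 1, -0.06 without control AAV library 4, -0.09 without nANGPTL4 AAV library 4 and -0.28 without control AAV library 3.

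Of 7 genes that FLI1 activates in megakaryocytes and platelets, all tested, 0 were called in edgeR, limma-voom or DESeq2, and 0 had an unadjusted p under 0.05. All 7 had positive values, with a median of 0.13, among them Gp1bb at 0.25, Gp9 at 0.32 and Pf4 at 0.32. Without control AAV library 1 these were 0.11, 0.12 and 0.11, and Gp9 was 0.49 without control AAV library 2. Of all tested genes with a mean log2 CPM up to 3, the range of most of this list, 66.4% were positive, with a median of 0.11. As 4 of these 7 are also in the erythroid and platelet marker list, the values describe the same transcripts.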

How the data were processed

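Per the labels' protocols, RNA was harvested from FACS-sorted lung cells with the PicoPure kit, and libraries came from a SMARTer low-input kit and a NEBNext ChIP-seq kit. The values deposited by the authors are whole-number read counts per Ensembl gene, not normalized, and the submitters' processing notes name mm10 as genome. The aligner, counting program and annotation are not given in the sources used here. Of 31610 identifiers, 31491 were matched to a symbol with the version removed.

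Genes were kept by filterByExpr (minimum count 10), scaled by TMM and tested with edgeR 4.0.16 in R 4.3.3 (quasi-likelihood F test, group as the only term), with Benjamini-Hochberg adjustment over 18874 genes and a threshold of 0.05. A positive difference means higher in nANGPTL4 AAV. CPM and log2 CPM (prior count 2) came from the same fit. Exon lengths and positions came from GENCODE M21, on the same build. The lowest count of a member in any library was 2766. The series' design text gives 4 independent biological replicates per group, and no pair of replicates was as close as counting error (chi-square over degrees of freedom from 20.97 to 60.81).

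The members and lists were chosen with earlier results of these data known. Named genes are the 10 members, called genes and up to 4 with the smallest p per list, the 5 genes most like Fli1, and genes that overlap a member, and 3 that this rule names are not reported here. Alternatives were other scalings and filters, DESeq2 1.42.0, limma-voom (limma 3.58.1), a robust fit, the replicate number as a block, and each library left out. The fit was tested on simulated counts.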

Additional observations from a re-analysis of the deposited data

Results flagged for a closer look

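In 70 groups of 4 libraries, from 35 named genes, 6 had 1 library set apart from the other 3 by more than the 95% critical value of Dixon's test. Chance flags about 1 in 20 such groups. Among the members this was Ets1 in nANGPTL4 AAV library 2, at 999 CPM where the other 3 lay at 900 to 910 CPM. In nANGPTL4 AAV library 4, Spdef was at 0.535 CPM, above the others at 0.296 to 0.324 CPM. Fzd4 was at 769 CPM in control AAV library 1, above 616 to 635 CPM, and at 511 CPM in nANGPTL4 AAV library 2, below 568 to 577 CPM. Vcam1 was at 62.9 CPM in nANGPTL4 AAV library 1, above 44.2 to 45.8 CPM. Gp1bb was at 7.32 CPM in nANGPTL4 AAV library 3, below 7.68 to 7.72 CPM.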

How the results depend on the processing

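The log2 fold change of Fli1 kept its direction in all 17 alternative fits, between -0.58 and -0.47. It passed the threshold in 7 of them and not with upper quartile scaling (-0.49), library size only (-0.49) or any 1 library left out (-0.58 to -0.47). The count of members called was 1, and 0 under upper quartile scaling, library size alone, an adjusted p under 0.01 and any 1 library left out (0 to 0). Over all genes 26 were called, 9 higher and 17 lower, against 4 under upper quartile scaling (3 higher, 1 lower), 4 under library size only (3 higher, 1 lower), 17 with the stricter filter, 956 with DESeq2 (308 higher, 648 lower), 59 with the robust fit, 471 at an adjusted p under 0.1, 1 at 0.01, and 1 to 2 with 1 library left out. By DESeq2, 1 other family gene, 3 partners and 4 targets and 1 gene held down by ERG or FLI1 were called, where edgeR called 0. The robust edgeR fit also called 1 gene of the last list. With 1 library left out, the log2 difference of Erg ranged from -0.0350 to 0.0813, negative in 4 of 8 fits (-0.0107 without control AAV library 3, -0.0145 without control AAV library 4, -0.0350 without nANGPTL4 AAV library 2 and -0.0035 without nANGPTL4 AAV library 4), that of Ets1 from -0.0195 (without control AAV library 3) to 0.0879 and that of Elf2 from -0.0413 to 0.0173 (without control AAV library 1). Elf2 was at 0.0163 under upper quartile scaling and 0.0196 under library size only. The summed member level was 426 CPM per kilobase, and 588 with the longest transcript. The causes of these shifts were not tested. The split of genes at an unadjusted p under 0.05 was 7.35% higher and 10.3% lower with TMM and 11.6% higher and 5.73% lower with library size only. With the replicate number as a block 6 genes were called, 1 higher and 5 lower, and Fli1 was at -0.53 with an adjusted p of 0.0484. The labels give no meaning to the shared numbers, and the main fit used no pairing. Deviations of same-numbered libraries correlated at 0.155, 0.144, -0.248 and -0.376. Such correlations cannot exclude a shared batch behind the numbers. Members had 2766 counts or more per library. Scarce genes, such as Etv2, Spic, Mmp9 and Ccl2, did not pass the filter on low counts and were not tested.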
